A study of Homo sapiens with 6 samples.

Results

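ZNF224 and 9 zinc finger genes that lie close to it on human chromosome 19 were described across 6 RNA libraries. They are 10 of the 58825 genes in the deposited gene table. ZNF224 was chosen because of its difference between the FOXM1 G and A libraries, and ZNF222, ZNF223, ZNF225, ZNF226, ZNF227, ZNF230, ZNF233, ZNF234 and ZNF45 because they neighbour it. Of the 10 genes, 9 were found by name. ZNF223 had no row under its symbol and was taken by its identifier ENSG00000178386, which the table names AC092072 and describes by the full name of ZNF223. On GRCh38, the build whose positions the transcript table holds, the 10 genes spread over 362694 bases (chr19:43912624-44275317), with 9 on the plus strand and ZNF45 on the minus strand.

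The libraries came from PC9, a human lung adenocarcinoma cell line with an activating EGFR mutation that is sensitive to the EGFR inhibitor gefitinib. FOXM1 is a transcription factor that drives genes of cell division. In the 3 G libraries the cells overexpressed it with the G allele of the variant rs3742076. In the 3 A libraries they overexpressed FOXM1 with the A allele. All 6 libraries shared the cell line, the overexpression of FOXM1 and a treatment with 100 nM gefitinib for 24 h, so the effect of gefitinib or of FOXM1 itself was not analysed here, and of the vector and promoter that drove FOXM1 nothing is stated in the labels.

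KRAB zinc finger proteins bind DNA through a run of tandem fingers and carry a KRAB domain at the other end. The domain recruits TRIM28, a scaffold that brings in the histone methyltransferase SETDB1, the heterochromatin proteins of the CBX family and deacetylase complexes, and so silences nearby chromatin. Genes of the family sit in tandem clusters that grew by duplication, many of them on chromosome 19, and they often silence mobile elements. ZNF224 is known as a repressor of the glycolytic gene ALDOA, as a partner of the arginine methyltransferase PRMT5 and of WT1, and as a partner of DEPDC1 in bladder cancer cells.

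The coding sequences show how close the genes are, which bears on how reads are assigned to them. Each finger is joined to the next by a short conserved linker, the H/C link. Its coding motif, read in frame on the coding strand, occurs 7 times in the coding part of ZNF224, 12 times in ZNF234, 11 times each in ZNF226 and ZNF227, 14 times in ZNF45, 4 times each in ZNF223 and ZNF225, 3 times each in ZNF222 and ZNF230, and 0 times in the short coding part of the leading ZNF233 transcript. Among 20371 coding genes of GENCODE release 29, 2.65% held it at least 1 time. The first such linker that aligned without gaps, and the finger after it, are shown for ZNF224 (chr19:44106839-44106922, plus strand, exon 6 of 6, coding), with the linker in capitals, and for the same coding bases, 679 to 762, of ZNF225 (chr19:44131293-44131376, exon 5 of 5) and ZNF234 (chr19:44156695-44156778, exon 6 of 6), with capitals at the 8 bases in each that differ from ZNF224.
ZNF224: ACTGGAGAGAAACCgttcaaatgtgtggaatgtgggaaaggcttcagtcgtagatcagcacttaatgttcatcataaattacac
ZNF225: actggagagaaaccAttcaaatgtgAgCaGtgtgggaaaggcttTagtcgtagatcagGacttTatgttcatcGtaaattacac
ZNF234: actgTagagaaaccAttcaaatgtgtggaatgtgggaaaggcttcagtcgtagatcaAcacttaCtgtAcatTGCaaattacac
Over these bases both neighbours were 90.5% identical to ZNF224. Across the aligned coding parts, ZNF224 was 82.3% identical to ZNF225 over 1988 bases and 74.4% identical to ZNF234 over 2017 bases, while ZNF222 and ZNF223 were 87.9% identical over 1431 bases. Stretches as long as a read were distinct in 5 of the 10 genes. Of the windows of 150 bases in the leading coding transcript, 0% were shared with another gene for ZNF225, ZNF226, ZNF230, ZNF234 and ZNF45. For ZNF224 46.9% were shared, all with ZNF225-AS1 (ENSG00000186019), which lies antisense across its end. ZNF225-AS1 was listed at 0 in 5 of the 6 libraries, but whether the authors counted by strand is not given in the sources used here, and without strand reads of ZNF224 and its antisense partner cannot be told apart. For ZNF223 60.2% of windows were shared, all with the readthrough transcript gene ENSG00000267022 that joins its exons to those of ZNF222, and for ZNF222 10.4% were shared with the same gene, so reads of ZNF222, ZNF223 and the readthrough gene may be split between them. ZNF227 shared 16.4% and ZNF233 0.825% of windows, with ZNF235.

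FOXM1, the overexpressed gene, was at 14.64, 14.34 and 13.96 FPKM in the G libraries, against 25.51, 10.47 and 10.05 FPKM in the A libraries. FPKM counts read pairs per kilobase of transcript, scaled to the mapped read pairs of the library, and the table does not separate the introduced FOXM1 from the cell's own. A1 therefore stood above all other libraries for FOXM1, and results are also given without it. The libraries were estimated at 19765236 to 23289066 read pairs. The 6 epithelial markers summed to 2612 to 3341 FPKM. The leukocyte markers PTPRC and CD3E and the fibroblast markers DCN and COL1A2 were at or near 0 and CD68, the leukocyte marker that was detected, was at 42.1 ± 6.12 FPKM in G and 39.6 ± 4.58 FPKM in A libraries (SD, n = 3 each).

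ZNF224 (ENSG00000267680, chr19:44094339-44109886) was the most abundant of the 10 genes and the gene that differed most among them. It was at 4.47, 4.44 and 4.55 FPKM in the G libraries, against 1.76, 1.81 and 2.31 FPKM in the A libraries. The lowest G library was above the highest A library, and the 3 G libraries lay closer together than the 3 A libraries. The mean was 4.49 ± 0.0594 FPKM in G and 1.96 ± 0.301 FPKM in A libraries (SD, n = 3 each), a ratio of 2.29. These values rested on 682, 636 and 753 read-pair equivalents in the G libraries and on 270, 295 and 324 in the A libraries. On the log2(FPKM + 1) scale, which understates changes of low genes, the difference was 0.89 with a standard error of 0.09. Without A1 it was 0.85. Since this contrast is what chose ZNF224, its values are a description and its adjusted p of 0.046 in limma-trend over all genes is only the value behind that choice. In bulk RNA, more cells with the transcript and more transcript per cell cannot be told apart.

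A gene entered the test when 3 or more libraries had 1 FPKM or more, which held for 12787 genes. Of these, 14, or 0.109%, passed a Benjamini-Hochberg adjusted p of 0.05 in limma-trend. Among the 14 genes, 4 (0.0313% of those tested) were higher and 10 lower in G. With sums per library made equal the split was 7 higher and 8 lower, and with median-ratio factors 1 and 7. ZNF224 was among the 4, and 0.587% of the tested genes had a log2 difference at least as large in size. The authors' deposited table gives ZNF224 a log2 fold change of 1.19, a p of 4.911e-08 and a q of 8.581e-05, and marks none of the other 9 genes as significant.

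**Figure D1:**
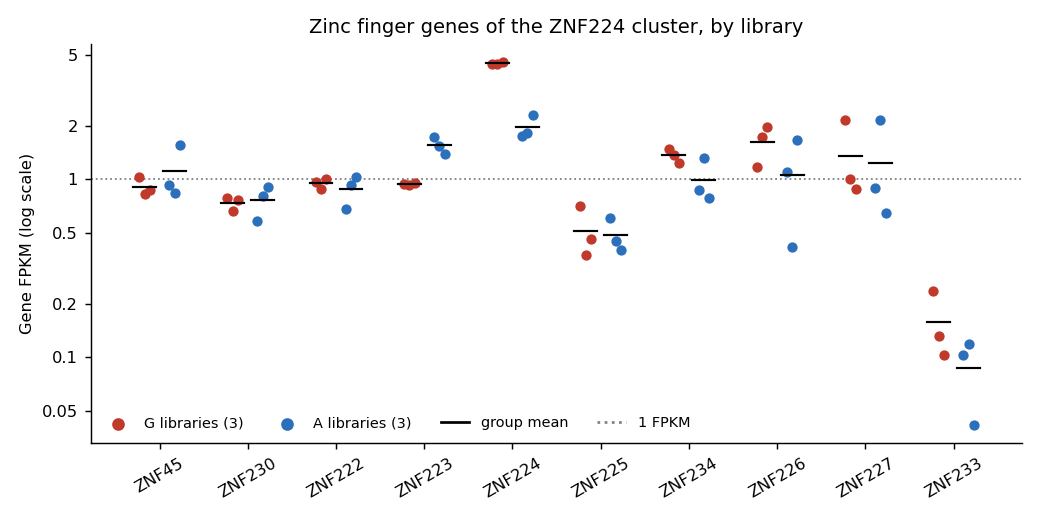
Gene FPKM on a log scale for the 10 genes in chromosomal order, with G libraries in red left of A libraries in blue, 3 points each, and the group mean as a bar. ZNF224 lies at 4.44 to 4.55 FPKM in G and 1.76 to 2.31 FPKM in A libraries, while most of its neighbours lie near 1 FPKM with overlapping groups.

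The other 9 genes were expressed at a low level. Over all 6 libraries ZNF224 averaged 3.22 ± 1.40 FPKM, followed by ZNF226 at 1.34 ± 0.562, ZNF227 at 1.29 ± 0.677, ZNF223 at 1.25 ± 0.350, ZNF234 at 1.18 ± 0.285 and ZNF45 at 1.01 ± 0.280 FPKM (SD, n = 6 each). ZNF222 came next at 0.915 ± 0.126 FPKM, then ZNF230 at 0.751 ± 0.115, ZNF225 at 0.499 ± 0.129 and ZNF233 at 0.122 ± 0.0634 FPKM. From ZNF226 to ZNF222, neighbours in this order differed by less than their spread. ZNF224 led the order in the G libraries without overlap, since the highest value of any other gene there was 2.16 FPKM, for ZNF227 in G1. In the A libraries ZNF227 reached 2.14 FPKM in A2, above ZNF224 in A1 and A2.

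Of the 10 genes, 5 passed the filter on low values and 1, ZNF224, was called, beside 0.109% of all tested genes. That call was lost in 12 of 17 alternative settings, among them each of the 6 fits that left out G1, G2, G3, A1, A2 or A3. Without ZNF224 the other 9 genes, 5 of them below the filter, had a median log2 difference of 0.06. The 4 tested ones had a median of 0.17, with 3 above 0 and 1 below, beside 0.02 over all tested genes. Their summed level was 8.54 ± 0.835 FPKM in G and 8.16 ± 0.582 FPKM in A libraries (SD, n = 3 each), and the G and A ranges overlapped. ZNF224 made up 34.5 ± 2.17% of the summed FPKM of the 10 genes in G libraries and 19.4 ± 2.05% in A libraries (SD, n = 3 each). In 2 of the 10 genes, ZNF224 and ZNF223, both among the 5 tested, the G and A libraries did not overlap. Over all tested genes that held for 24.9%, and for 15.4% with G higher and 9.57% with G lower. The count is not read against this share, since ZNF224 was chosen by this contrast and ZNF223 tested only through its A libraries.

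ZNF223 (chr19:44051367-44067999), a KRAB zinc finger gene of little known function, lay in the opposite direction to ZNF224. It was at 0.947, 0.930 and 0.956 FPKM in the G libraries, against 1.73, 1.54 and 1.39 FPKM in the A libraries. All 3 A libraries were above all 3 G libraries. The mean was 0.944 ± 0.0130 FPKM in G and 1.55 ± 0.172 FPKM in A libraries (SD, n = 3 each), on 62.1 to 123 read-pair equivalents per library. The log2 difference was -0.39 with a standard error of 0.09. ZNF223 passed the filter on low values through its A libraries alone, since all 3 G libraries were under 1 FPKM, so no test is read from it. On its strand ZNF223 overlaps the readthrough gene, which in turn overlaps ZNF222 and ZNF284, while ZNF223 itself overlaps neither. Summed over all these genes, the locus held 169, 155 and 183 read-pair equivalents in the G libraries and 201, 237 and 188 in the A libraries. The difference then shrank to -0.21 (adjusted p 0.24), still lower in G but closer to 0.

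ZNF234 (chr19:44141554-44160313), whose coding part was 86.4% identical to that of ZNF226 over 1650 bases, was at 1.48, 1.37 and 1.23 FPKM in the G libraries, against 0.875, 1.32 and 0.781 FPKM in the A libraries. A2 lay between the G libraries, so the groups overlapped. The log2 difference was 0.25, with a 95% interval of -0.05 to 0.56 and an adjusted p of 0.35. ZNF226 (chr19:44165073-44178381) was at 1.18, 1.72 and 1.97 FPKM in the G libraries, against 1.09, 0.419 and 1.66 FPKM in the A libraries. The lowest value, in A2, set most of the spread between A libraries. Its log2 difference was 0.38, with an interval of -0.21 to 0.98 and an adjusted p of 0.46, and it was 0.14 without A2 and 0.59 without A3. ZNF227 (chr19:44207547-44237268) had 1 high library in each group. It was at 2.16, 1.01 and 0.882 FPKM in the G libraries, against 0.895, 2.14 and 0.647 FPKM in the A libraries. Its log2 difference of 0.09, with an interval of -0.64 to 0.82 and an adjusted p of 0.89, turned to -0.14 without G1. All 3 intervals included 0, and that of ZNF226 also included the ZNF224 difference.

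The 5 genes below the filter had overlapping groups. ZNF45 (chr19:43912624-43935282, minus strand) was at 1.03, 0.825 and 0.868 FPKM in the G libraries, against 0.929, 0.838 and 1.56 FPKM in the A libraries, with A3 highest. ZNF222 (chr19:44025342-44033110) was at 0.971, 0.881 and 1.01 FPKM in the G libraries, against 0.680, 0.930 and 1.02 FPKM in the A libraries. The G libraries of ZNF222 lay within the A range. ZNF230 (chr19:44002957-44013924) averaged 0.736 ± 0.0639 FPKM in G and 0.765 ± 0.169 FPKM in A libraries (SD, n = 3 each). ZNF225 (chr19:44112181-44134822), the next gene after ZNF224 on its strand and the one with the longest alignment above 80% identity to its coding part, was at 0.705, 0.374 and 0.460 FPKM in the G libraries, against 0.606, 0.448 and 0.399 FPKM in the A libraries. The ZNF225 level therefore did not follow that of ZNF224 from library to library. ZNF233 (chr19:44259880-44275317) stayed under 0.24 FPKM in every library, on 3.33 to 20.5 read-pair equivalents, where a difference was not detectable at this depth.

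**Figure D2:**
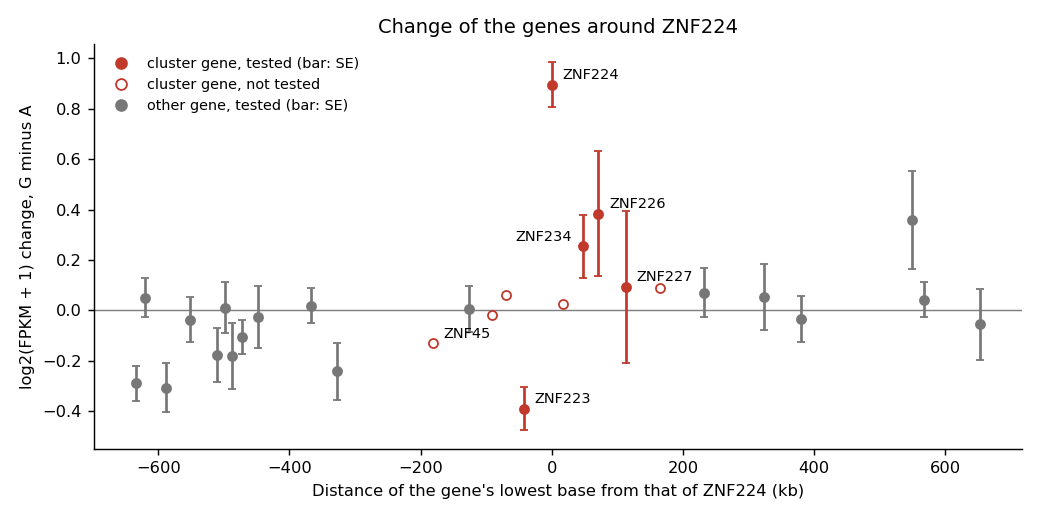
Difference on the log2(FPKM + 1) scale, G minus A, against the distance in kb from ZNF224 for the genes of the cluster and the tested genes around it, with bars for the standard error. ZNF224 stands at 0.89 and ZNF223 at -0.39, while the 17 tested flanking genes lie between -0.31 and 0.36.

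The genes around the cluster were compared in the same way. Between the outermost of the 10 genes lie 13 further rows, of which 1 was tested. That gene, ZNF155, another zinc finger gene, was at 1.11 ± 0.104 FPKM in G and 1.10 ± 0.134 FPKM in A libraries (SD, n = 3 each). Within 500 kb on either side, 17 of 52 genes were tested and 0 were called, beside 0.109% of all tested genes. In limma-trend 2 of the 17 had an unadjusted p under 0.05, beside 17.3% of all tested genes. Before the cluster 3 genes were higher and 8 lower in G, and after it 4 were higher and 2 lower, none of them past the threshold. The ends of the range were ETHE1, a mitochondrial persulfide dioxygenase, at -0.31 and PVR, the poliovirus receptor, at 0.36.

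The table holds 298 genes of chromosome 19 whose names start with ZNF, a few of them antisense or divergent transcripts of zinc finger genes, and 98 were tested. In these, 66 differences were above 0 and 32 below, with a median of 0.07, beside 7045 above and 5742 below and a median of 0.02 over all tested genes. ZNF224 was the called gene among the 98, beside 0.109% of all tested genes, and ranked first by its difference, followed by ZNF260 at 0.74. Because this same difference is what chose ZNF224, neither its call nor its rank is read as a result. ZNF226 ranked 8, ZNF234 14, ZNF227 39 and ZNF223 96, with ZNF628 last at -0.70. The ranks of the cluster's 5 tested genes are a description, since ZNF224 was chosen by this contrast and ZNF223 tested only through its A libraries.

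**Figure D3:**
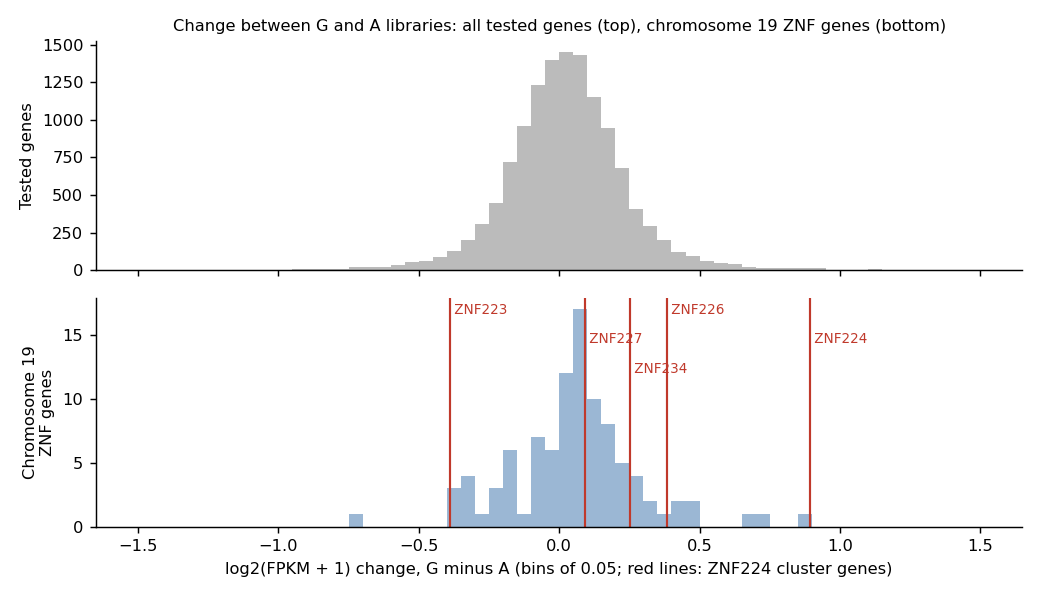
Number of genes by their difference on the log2(FPKM + 1) scale, G minus A, in bins of 0.05. The top plot shows the tested genes between -1.5 and 1.5, while over all 12787 tested genes the differences ran from -4.25 to 2.21. The bottom plot shows the 98 tested chromosome 19 genes with names that start with ZNF, with red lines at the 5 tested genes of the cluster. In the lower plot ZNF224 lies at the far right at 0.89, and ZNF223 near the left end at -0.39.

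The transcript table lists 75 transcripts of the 10 genes, of which 44 averaged over 0.1 FPKM and 8 were tested. Of the 8, 0 were called, while 0.147% of all 29990 tested transcripts were (3 of the 8 belong to ZNF224). The leading ZNF224 transcript, ENST00000336976, has 6 exons and 3980 bases, codes for the zinc finger protein, and held 51.1% of the summed transcript FPKM. It was at 6.95, 6.22 and 6.07 FPKM in the G libraries, against 1.69, 2.54 and 3.65 FPKM in the A libraries. All G libraries were above all A libraries, and the A libraries differed more among themselves than the G libraries did. The mean was 6.41 ± 0.472 FPKM in G and 2.63 ± 0.984 FPKM in A libraries (SD, n = 3 each), a log2 difference of 1.06 with a standard error of 0.23 and an adjusted p of 0.39 in limma-trend over transcripts. It carried 87.1%, 78.5% and 74.6% of the read-pair equivalents of ZNF224 in the G libraries and 53.9%, 79.2% and 89.2% in the A libraries, so its share overlapped between the groups. A gene value is not the plain sum of its transcript FPKM. In each of the 16694 genes above 0.1 FPKM in all libraries, it was a fixed multiple of FPKM times length summed over transcripts, within 1%. The gene value therefore follows the summed read-pair equivalents of its isoforms, whichever isoform holds them. Whether the way StringTie splits reads between genes moves the gene values was not tested.

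Among the other ZNF224 transcripts, ENST00000589060, a retained intron of 1552 bases at the start of the gene, was at 1.512, 2.034 and 1.881 FPKM in the G libraries, against 1.513, 0.8725 and 0.00511 FPKM in the A libraries. A3 was almost without it and A1 matched the lowest G library. ENST00000589870, a short coding transcript of 614 bases, averaged 1.63 ± 0.930 FPKM in G and 1.09 ± 0.554 FPKM in A libraries (SD, n = 3 each). ENST00000591551, a retained intron of 2994 bases that reaches into the finger exon, was at 0.249, 0.599 and 1.22 FPKM in the G libraries, against 0.238, 0.226 and 0.261 FPKM in the A libraries. Its G values were spread widely, and G1 lay within the A range. ENST00000589680 averaged 0.514 FPKM in G and 0.859 FPKM in A libraries, where A1 alone reached 2.02 FPKM. The short ENST00000591511 averaged 0.271 FPKM in G and 0.296 FPKM in A libraries, and ENST00000590614 averaged 0.0833 FPKM in G and 0.256 FPKM in A libraries.

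For ZNF223 the lower gene value in G was carried by the full-length coding transcript. ENST00000434772 was at 0.579, 1.01 and 0.887 FPKM in the G libraries, against 2.27, 1.88 and 1.65 FPKM in the A libraries, without overlap. Its log2 difference was -0.69 with a standard error of 0.18 and an adjusted p of 0.51. The other 3 ZNF223 transcripts with any estimate had higher means in G, at 0.514 FPKM in G and 0.304 FPKM in A for ENST00000593088, 0.489 FPKM in G and 0.172 FPKM in A for ENST00000591850, and 0.498 FPKM in G and 0.141 FPKM in A for ENST00000585552. Those 3 are short, and each had overlapping groups. In ZNF226 the leading ENST00000337433 was at 0.856, 2.72 and 3.50 FPKM in the G libraries, against 0.644, 0 and 2.58 FPKM in the A libraries, so the estimate for this gene moved between its isoforms from library to library. Its ENST00000300823 averaged 0.937 FPKM in G and 0.900 FPKM in A libraries.

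The remaining genes had transcripts near 1 FPKM or lower, and in most of them the reads moved between isoforms from library to library. The leading ZNF230 transcript ENST00000429154 averaged 1.04 FPKM in G and 1.09 FPKM in A libraries, and its retained intron ENST00000589275 0.142 FPKM in G and 0.146 FPKM in A libraries. The leading ZNF234 transcript ENST00000426739 averaged 1.04 FPKM in G and 0.894 FPKM in A libraries, and its ENST00000592437 0.970 FPKM in G and 0.463 FPKM in A libraries, listed at 0 in A2. ZNF225 was split between ENST00000262894, at 1.04, 0 and 0.699 FPKM in the G libraries, against 0.783, 0.524 and 0.000306 FPKM in the A libraries, and ENST00000590612, at 0, 1.10 and 0 FPKM in the G libraries, against 0.282, 0.343 and 0.995 FPKM in the A libraries. Where the first was at or near 0 the second was highest. The short ENST00000588926 of ZNF225 averaged 0.203 FPKM in G and 0.0363 FPKM in A libraries. ZNF227 was likewise split, with ENST00000313040 at 1.48 ± 1.33 FPKM in G and 0.705 ± 0.341 FPKM in A libraries, ENST00000589005 at 0.248 ± 0.216 FPKM in G and 1.14 ± 1.07 FPKM in A libraries, and the non-coding ENST00000589237 at 0.941 ± 0.364 FPKM in G and 0.646 ± 0.196 FPKM in A libraries (SD, n = 3 each). The high ZNF227 libraries came from different transcripts, since G1 held 3.01 FPKM of ENST00000313040 and A2 held 2.36 FPKM of ENST00000589005. ZNF222 was mostly ENST00000391960, at 0.744 FPKM in G and 0.943 FPKM in A libraries, with ENST00000187879 at 0.423 FPKM in G and 0.146 FPKM in A libraries. ZNF45 was led by ENST00000589703, at 0.819 FPKM in G and 1.13 FPKM in A libraries, followed by ENST00000588432 at 0.462 FPKM in G and 0.686 FPKM in A libraries and ENST00000588140 at 0.166 FPKM in G and 0.350 FPKM in A libraries. ZNF233 had a single expressed transcript, ENST00000592581, at 0.217 FPKM in G and 0.121 FPKM in A libraries.

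**Figure D4:**
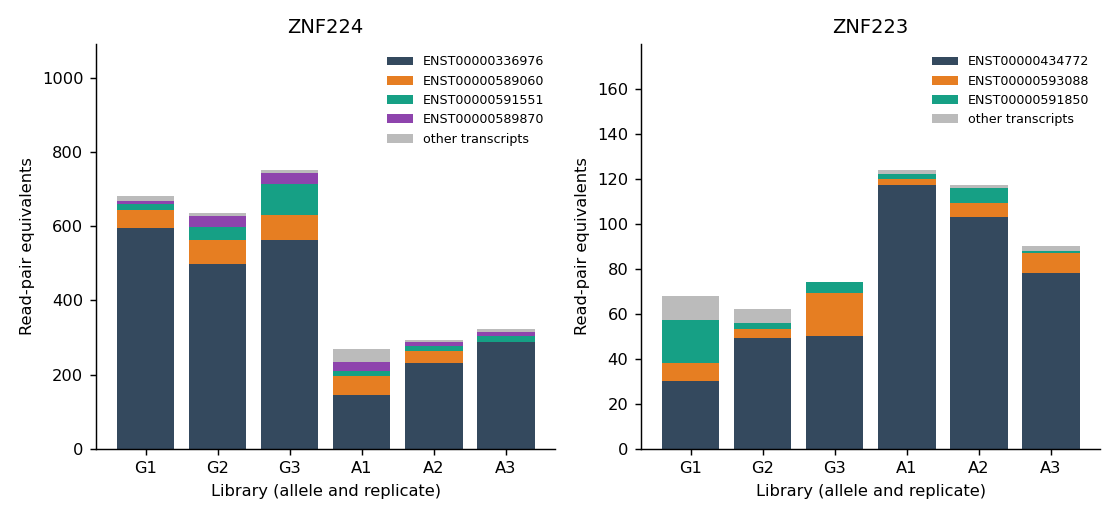
Read-pair equivalents per library for the transcripts of ZNF224 (left) and ZNF223 (right), G libraries left of A libraries, stacked by transcript. The full-length coding transcript (dark) holds most of ZNF224 in every library and most of ZNF223 in every library but G1, with 499 to 595 read-pair equivalents in G and 145 to 288 in A for ZNF224, and 30 to 50 in G and 78 to 117 in A for ZNF223.

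The stretch before the start of each gene was read from the RefSeq promoter table on GRCh38.p14, which held 8 of the 10 genes. The letters TTCTGGGAA, chosen after these sequences were seen, stood in 7 of the 8 on either strand, and in 4 of them at least 2 times. Over the 35116 promoters of the table the share was 0.908%, with 0.037% holding it at least 2 times, and over the 307 promoters of chromosome 19 genes with names that start with ZNF it was 8.79%. The 250 bases before the RefSeq start are shown for ZNF224 (chr19:44094111-44094360), ZNF230 (chr19:44002707-44002956) and ZNF234 (chr19:44141304-44141553), all on the plus strand, with these letters in capitals, because they show the repeated block that neighbouring promoters share.
ZNF224: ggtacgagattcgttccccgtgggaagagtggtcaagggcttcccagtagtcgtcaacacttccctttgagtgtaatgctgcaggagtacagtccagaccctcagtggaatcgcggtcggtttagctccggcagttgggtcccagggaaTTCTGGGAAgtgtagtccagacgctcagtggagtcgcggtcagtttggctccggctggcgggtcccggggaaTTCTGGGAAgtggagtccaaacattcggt
ZNF230: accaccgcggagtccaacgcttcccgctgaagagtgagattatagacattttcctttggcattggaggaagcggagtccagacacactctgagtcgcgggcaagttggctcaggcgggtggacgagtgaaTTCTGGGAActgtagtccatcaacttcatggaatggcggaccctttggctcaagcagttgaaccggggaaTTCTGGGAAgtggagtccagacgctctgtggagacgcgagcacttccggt
ZNF234: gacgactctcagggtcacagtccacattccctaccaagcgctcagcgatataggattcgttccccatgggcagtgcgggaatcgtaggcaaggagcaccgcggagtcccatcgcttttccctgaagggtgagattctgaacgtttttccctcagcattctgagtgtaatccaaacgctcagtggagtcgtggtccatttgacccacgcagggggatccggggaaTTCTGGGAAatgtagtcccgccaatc
ZNF224 and ZNF230 each hold 2 copies and ZNF234 holds 1, while the ZNF225 promoter held 4. A forkhead core, TAAACA, was in 0 of the 8 windows on either strand, while 11.0% of all promoters held it. The CHR letters TTTGAA or TTCGAA, an element through which FOXM1 reaches cell cycle genes, were in 0 of 8, while 14.3% of all promoters held them. CCAAT was in 4 of 8, beside 32.0% of all promoters. These counts describe letters in short windows only.

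The machinery through which KRAB proteins act was measured from a list of 26 genes. All 26 were tested and 0 were called, beside 0.109% of all tested genes, and 4 had an unadjusted p under 0.05 in limma-trend, beside 17.3%. Differences were above 0 for 18 and below 0 for 8, with a median of 0.03 beside 0.02 over all tested genes. TRIM28, the scaffold that binds KRAB domains, was at 91.1 ± 4.98 FPKM in G and 98.4 ± 5.00 FPKM in A libraries (SD, n = 3 each). SETDB1, the methyltransferase it recruits, was at 7.37 ± 0.252 FPKM in G and 6.25 ± 0.630 FPKM in A libraries. Both stood well above the zinc finger genes in level and neither passed the threshold (adjusted p 0.40 and 0.26). The smallest p-values belonged to CBX5, a heterochromatin protein, at 9.65 ± 0.155 FPKM in G and 7.65 ± 0.337 FPKM in A libraries, then to TASOR, a subunit of the HUSH silencing complex, at 4.42 ± 0.104 FPKM in G and 3.44 ± 0.0924 FPKM in A libraries, and to CHD3, a remodeller of the deacetylase complex NuRD, at 30.7 ± 1.49 FPKM in G and 25.4 ± 1.28 FPKM in A libraries. Their adjusted p-values were 0.16, 0.16 and 0.18.

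Of 12 reported partners and targets of ZNF224, 10 were tested and 0 were called, beside 0.109% of all tested genes. Of the 10, 8 differences were above 0 and 2 below, with a median of 0.05, and 2 had an unadjusted p under 0.05 in limma-trend, beside 17.3% of all tested genes. ALDOA, the aldolase gene that ZNF224 was found to repress, was at 567 ± 29.1 FPKM in G and 549 ± 30.0 FPKM in A libraries (SD, n = 3 each), a difference of 0.04 with an adjusted p of 0.73. PRMT5 was at 20.9 ± 1.23 FPKM in G and 20.9 ± 1.69 FPKM in A libraries. DEPDC1 was at 7.71 ± 0.852 FPKM in G and 4.36 ± 0.374 FPKM in A libraries, a difference of 0.70 with an adjusted p of 0.11. BAX, an activator of apoptosis, was at 15.0 ± 0.995 FPKM in G and 19.4 ± 1.79 FPKM in A libraries, with an adjusted p of 0.18. TNFAIP3, an inhibitor of NF-kB signalling that ZNF224 and DEPDC1 repress together in bladder cancer cells, was at 8.25 ± 0.258 FPKM in G and 7.64 ± 0.302 FPKM in A libraries, with an adjusted p of 0.43. WT1 averaged 0.0257 FPKM in G and 0.0310 FPKM in A libraries and BCL2A1 was listed at 0 in all libraries, so neither was tested.

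**Figure D5:**
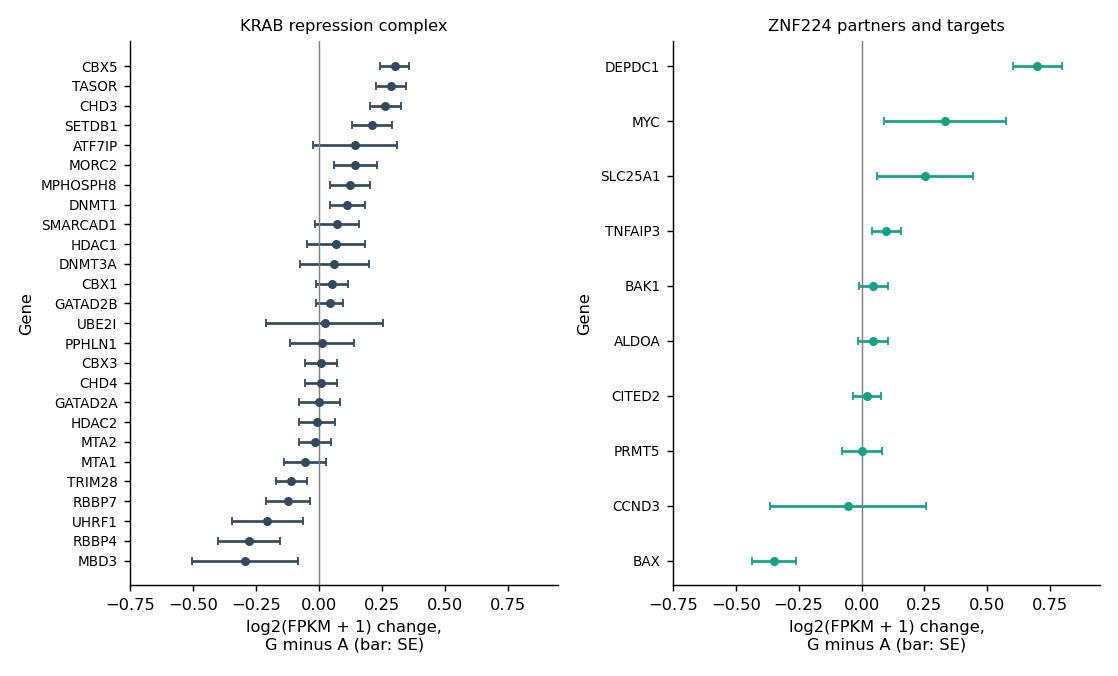
Differences on the log2(FPKM + 1) scale, G minus A, with standard errors, for the 26 tested genes of the KRAB repression list (left) and the 10 tested partners and targets of ZNF224 (right). The differences run between -0.29 and 0.30 on the left and between -0.35 for BAX and 0.70 for DEPDC1 on the right, and none passed the threshold.

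Genes with a profile like that of ZNF224 were sought over the 6 libraries by the root mean square difference of log2(FPKM + 1) values, each centred on its own mean. The median distance over all tested genes was 0.46. The nearest was SPSB1, an adaptor of a ubiquitin ligase, at a distance of 0.03. SPSB1 was at 10.2, 9.74 and 10.1 FPKM in the G libraries, against 4.44, 4.33 and 5.62 FPKM in the A libraries. Like ZNF224 it had its highest A value in A3. C6orf89 followed at 0.11, ANKRD61 at 0.16, CAV2, a coat protein of caveolae, at 0.17 and AC018665 at 0.17. ANKRD61 and AC018665 passed the filter on low values through their G libraries alone. They rested on 8.5 to 35.5 and 15.5 to 71.4 read-pair equivalents per library. Within the cluster, ZNF226 stood at 0.36 (rank 1112) and ZNF234 at 0.37 (rank 1551), while ZNF227 at 0.58 and ZNF223 at 0.66 were farther from ZNF224 than the median gene. These distances describe 6 libraries of 2 groups and were chosen by the ZNF224 values.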

How the data were processed

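Poly(A) RNA of 3 G and 3 A libraries was sequenced as 2×150 base read pairs after dUTP strand marking, per the labels' protocols. The submitters' processing notes name cutadapt 1.9, HISAT2 2.0.4, StringTie 1.3.4d and a mouse build. The files contradict that build: their identifiers are human, and 94.7% of the 206348 transcripts that GENCODE release 29 also lists sat at its GRCh38 positions on its strand. Neither the strand setting nor the annotation release was found in the labels or headers. The deposited tables hold FPKM for 58825 genes and 208460 transcripts, scaled by the authors. Per the file headers, the authors also deposited a fold ratio of G over A with its log2. A p-value and a q-value stand beside these in the deposited tables, from an unnamed test.

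FPKM were taken as log2(FPKM + 1). Genes reaching 1 FPKM in 3 or more libraries were tested with limma 3.58.1 (limma-trend, R 4.3.3), G minus A, with a Benjamini-Hochberg adjusted p under 0.05 over all genes. Transcripts were fitted alike. The step of 1 read pair in single-exon genes over 400 bases gave the read-pair equivalents, which are estimates. Only 34.1% to 35.8% of low values came out whole within 0.05 read pairs, too few to recover reads for a count test. Coding parts were compared with blastn 2.17.0. Python 3.11.15 with pandas 2.3.3 handled the tables.

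The genes and lists were chosen with earlier results of these data known. Named were the 10 genes, each ZNF224 transcript averaging over 0.1 FPKM, transcripts of the others holding at least 10% of their gene, the 3 genes of each list with the smallest p, TRIM28, SETDB1, PRMT5, ALDOA, DEPDC1, the 5 genes most like ZNF224, tested genes within the cluster, and FOXM1. Alternatives changed the pseudocount, filter, scaling, variance model, weights, replicate block and libraries. Whether replicates were separate cultures is not stated in the labels, so the spread behind each p-value may be technical.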

Additional observations from a re-analysis of the deposited data

How the results depend on the processing

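ZNF224 was higher in G in all 17 alternatives, at 0.85 to 1.2, and passed the threshold in 5, with adjusted p-values of 0.0307 to 0.26 over the 17. Its call was lost at 0.89 with no filter (0.14), with a 0.5 FPKM filter (0.055), without a variance trend (0.073) and with the replicate block (0.26), at 0.86 with median-ratio factors (0.057) and at 0.85 with quantile normalization (0.055). Without G1, G2, G3, A1, A2 or A3 in turn it was 0.85 to 0.98, with no call (0.053 to 0.17). The 14 called genes became 5 with no filter, 9 with 0.5 FPKM, 8 with median-ratio factors, 6 with quantile normalization, 4 without a trend and 5 to 20 with a library left out (20 without A1). With the replicate block limma called 0 genes (2148 at an unadjusted p under 0.05) and 0 transcripts (1925). Deviations from the group means correlated at 0.073, 0.015 and 0.04 between same-numbered libraries and at -0.056 to 0.016 between the others. All these correlations were weak, so the numbers were not taken as pairs. The 44 called transcripts became 23 with a pseudocount of 0.1, 0 with 0.01 (2161 at an unadjusted p under 0.05) and 7 to 37 with a library left out. ZNF223 was lower in G in all 17 alternatives (-0.70 to -0.21) and called in 0, though it entered most fits through its A libraries alone. ZNF226, ZNF227 and ZNF234 had 0 calls in the settings that tested them, and ZNF226 ran over 0.14 (without A2) to 0.59 (without A3). ZNF45, ZNF222, ZNF225, ZNF230 and ZNF233 were below the filter in most settings and had 0 calls where they were tested. ZNF222 was at 0.06 alone and at -0.21 when summed over the locus that the readthrough gene joins with ZNF223 and ZNF284. The KRAB list had 0 calls in each setting. Other signs turned with median-ratio factors for PRMT5 (-0.0412), ALDOA (-5.033e-05), FOXM1 (-0.0103) and ZNF155 (-0.0185), and for ZNF155 also with quantile normalization (-0.0529), library weights (-0.0136) and overlapping genes summed (-0.00676). With a library left out, PRMT5 ran over -0.0635 to 0.0495, FOXM1 -0.19 to 0.44, ZNF155 -0.0469 to 0.0455, ZNF227 -0.14 to 0.37, ENST00000300823 -0.32 to 0.39 and ENST00000429154 -0.11 to 0.03. The causes were not tested. Of the 455 alternatives for single genes and transcripts, 406 were counted as the same. Where the main fit tested the gene or transcript, this means the same direction and side of the threshold. For genes below the filter it means a shift smaller than the SD within groups. Of the rest, 22 lost a call, 5 gained a call, 21 changed sign and 1 shifted by more than that SD. Depth limits ZNF233 most, at 3.33 to 20.5 read-pair equivalents.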
